A study of Mus musculus with 6 samples.

Results

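The T cell receptor complex and its coreceptors were described here through 10 genes: the CD3 chains Cd3d, Cd3e and Cd3g, the zeta chain gene Cd247, the coreceptor genes Cd4, Cd8a and Cd8b1, the adhesion receptor gene Cd2, the kinase gene Lck and the surface glycoprotein gene Thy1. A gene was taken by its symbol in the platform annotation, with the probe set of the highest mean where a gene has several. Of the 10 genes, 9 were measured, each by 1 probe set, out of 19505 named genes; Lck, the kinase that binds the coreceptors and phosphorylates the CD3 chains, was absent from the table under its symbol and was not analysed here.

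The samples were brain microglia of female C57BL/6 mice taken when experimental autoimmune encephalomyelitis (EAE), the standard mouse model for multiple sclerosis, had reached its peak. All mice, controls included, had been immunised under the skin with recombinant myelin oligodendrocyte glycoprotein (rMOG) in incomplete Freund's adjuvant (IFA) and given pertussis toxin into a vein. The groups were 3 control samples and 3 samples labelled as a B cell conditional knock-out (CKO), which the series title ties to B cells that express GM-CSF; the deleted gene, the driver of the deletion, the age of the mice and any pooling of animals are not stated in the labels. Each sample gave 1 array, and since nothing states that the replicates are separate animals, the p-values measure only the spread among these arrays, part of which may be technical.

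T cells recognise peptides on MHC molecules with an alpha and a beta chain that cannot signal alone. The CD3 gamma, delta, epsilon and zeta chains are bound to them and carry the tyrosine motifs that Lck phosphorylates, upon which the kinase ZAP-70 docks and passes the signal on. CD4 binds MHC class II and CD8 binds MHC class I, and each brings Lck to the receptor. In EAE, T cells primed in the periphery enter the brain and spinal cord and are reactivated there by antigen-presenting cells; microglia themselves do not build a T cell receptor. In RNA from whole isolates, fewer T cells and less RNA per T cell cannot be told apart.

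All 9 measured genes had lower values in CKO than in control samples, with a median log2 difference of -3.10 against 0.06 over all 22206 probe sets. The 3 CD3 chains and both CD8 chains differed most, with log2 differences from -4.17 to -3.10, and Cd247 least. None of the 9 passed the threshold of limma's test over all probe sets (Benjamini-Hochberg adjusted p under 0.05, where 0.00901% of all probe sets were called lower), with adjusted p from 0.0745 to 0.320. All 9 had an unadjusted p under 0.05, against 6.35% of all probe sets, and in all 9 the groups did not overlap, against 8.48% of probe sets with CKO below control. The count of members called depended on the arrays: it was 6 without control replicate 2, 7 without CKO replicate 1, 8 without both of these, and 0 when any other single array was left out. Calls over all probe sets moved in the same settings: 0.563%, 4.94% and 6.28% of them were called lower. With arrays weighted by their quality 8 members were called, and 4.76% of all probe sets were called lower. With 3 arrays in each group the smallest two-sided p of an exact permutation test is 0.1, so single genes were left to limma.

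**Figure D1:**
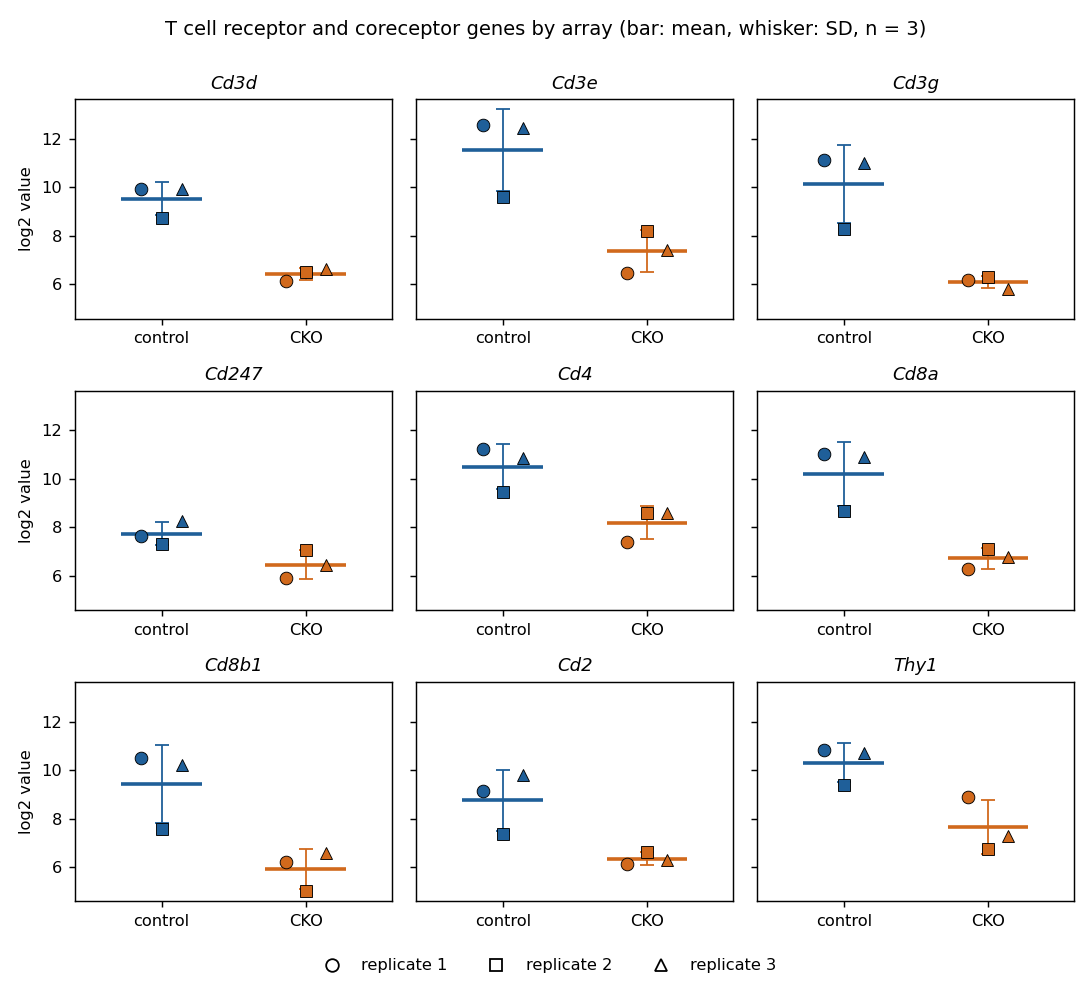
Deposited log2 value (y axis) of each measured gene on the 3 control and 3 CKO arrays; symbols mark the replicate number, bars the mean and whiskers the SD. In every panel the lowest control point is replicate 2, and it lies above the highest CKO point, by 2.12 for Cd3d and by 0.26 for Cd247.

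Cd3e encodes the epsilon chain, which is present in both CD3 dimers of the complex. Its log2 values were 12.55, 9.59 and 12.45 in the 3 controls and 6.48, 8.21 and 7.4 in the 3 CKO samples, here and below in the order of replicates 1, 2 and 3. Controls 1 and 3 were nearly equal, control 2 lay about midway to the CKO arrays, and CKO 2 was the highest of its group. The difference was -4.17 (SE 0.79, 95% interval -5.98 to -2.36, limma adjusted p = 0.121), a value 18.0-fold lower in CKO. Relative to its own array, Cd3e stood at percentile 93.4 of all probe sets on controls 1 and 3, at 76.5 on control 2, and between 40.6 and 63.7 on the CKO arrays.

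Cd3g encodes the gamma chain, which pairs with epsilon. Its values were 11.12, 8.28 and 11.01 in controls and 6.17, 6.29 and 5.82 in CKO. The CKO arrays were close together (6.09 ± 0.24, SD, n = 3) while the controls were spread (10.14 ± 1.61) by control 2. The difference was -4.04 (SE 0.69, adjusted p = 0.107).

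Cd3d encodes the delta chain, the other partner of epsilon. Its values were 9.94, 8.75 and 9.93 in controls and 6.16, 6.52 and 6.63 in CKO, with the widest gap between the groups among the 9 genes, 2.12. It differed by -3.10 (SE 0.38, 95% interval -3.97 to -2.24, adjusted p = 0.0745), 8.59-fold lower in CKO. Its unadjusted p of 2.75e-05 was the seventh smallest of all probe sets. Cd3d was the single member with an adjusted p under 0.1, where 0.198% of all probe sets were called lower.

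The 3 CD3 chain genes lie side by side on chromosome 9, in RefSeq's gene order (GRCm38.p6), with no other protein-coding gene between them. Cd3g and Cd3d are read away from each other from neighbouring starts. Their upstream sequences are shown because these genes differed together, and that of Cd247, on chromosome 1, because it differed least. The 250 bases before each start were searched on both strands for TGNGGT (a loose form of the RUNX core), GGAAGT (ETS), NGATAA (GATA) and CANNTG (E-box), patterns of transcription factor families used in T cells; capitals mark the first 3 of these, and E-boxes are left in lower case. The sequences are RefSeq's, build GRCm38.p6, written 5′ to 3′ on the strand of the gene: chr9:44980432-44980681, minus strand, for Cd3g, chr9:44981536-44981785, plus strand, for Cd3d, chr9:45009612-45009861, minus strand, for Cd3e, and chr1:165788431-165788680, plus strand, for Cd247.
Cd3g: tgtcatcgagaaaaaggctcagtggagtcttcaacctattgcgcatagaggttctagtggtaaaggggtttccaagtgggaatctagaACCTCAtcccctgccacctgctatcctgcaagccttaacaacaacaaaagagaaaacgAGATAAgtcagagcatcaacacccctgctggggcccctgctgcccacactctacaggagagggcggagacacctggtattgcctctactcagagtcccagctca
Cd3d: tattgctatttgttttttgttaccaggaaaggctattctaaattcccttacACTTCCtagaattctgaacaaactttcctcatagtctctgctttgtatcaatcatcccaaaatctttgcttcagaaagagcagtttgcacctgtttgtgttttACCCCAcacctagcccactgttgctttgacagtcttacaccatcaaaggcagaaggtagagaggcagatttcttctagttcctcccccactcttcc
Cd3e: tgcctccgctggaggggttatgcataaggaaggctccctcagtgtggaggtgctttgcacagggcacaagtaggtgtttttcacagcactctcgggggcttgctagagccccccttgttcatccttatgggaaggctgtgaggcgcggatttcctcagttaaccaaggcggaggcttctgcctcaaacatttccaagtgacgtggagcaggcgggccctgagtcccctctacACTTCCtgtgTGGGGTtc
Cd247: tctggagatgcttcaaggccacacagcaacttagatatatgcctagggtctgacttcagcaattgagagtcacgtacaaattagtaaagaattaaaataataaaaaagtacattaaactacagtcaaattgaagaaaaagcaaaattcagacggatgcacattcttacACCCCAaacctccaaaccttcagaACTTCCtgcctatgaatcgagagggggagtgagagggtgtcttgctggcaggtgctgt

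The promoter table held 6 of the 10 members, 5 of them measured (these 4 and Cd8a). TGNGGT occurred in 4 of the 5, with Cd8a the exception, against 40.1% of the 32851 promoter windows of that length. Its matches ended 3 bases before the start in Cd3e and began 162 bases before it in Cd3g. They read TGGGGT in Cd3d, Cd3e and Cd247 and TGAGGT in Cd3g, on one strand or the other. None was TGTGGT or TGCGGT, the stricter RUNX core, so these stretches are not shown to be RUNX sites. GGAAGT occurred in 3 of the 5 (Cd3d, Cd3e and Cd247), against 19.7%. NGATAA occurred in Cd3g and Cd8a, against 22.5%, and CANNTG in all 5, against 66.2%. A match is a description of these letters, and with 5 windows the shares allow no comparison; the array data do not measure binding.

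The neighbours of the CD3 genes differed less. Ube4a, which encodes a ubiquitin ligase and is the nearest measured gene on one side, was at 13.28, 13.03 and 13.23 in controls and 12.95, 12.33 and 12.33 in CKO (difference -0.64, SE 0.29, limma adjusted p = 0.511). Its groups did not overlap either, with a gap of 0.08, and its unadjusted limma p was 0.054. Mpzl2, an adhesion gene on the other side, differed by 0.30 (SE 0.31, adjusted p = 0.742). The 95% intervals of these 2 genes, -1.30 to 0.02 and -0.41 to 1.01, lay wholly above the interval of each CD3 gene.

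**Figure D2:**
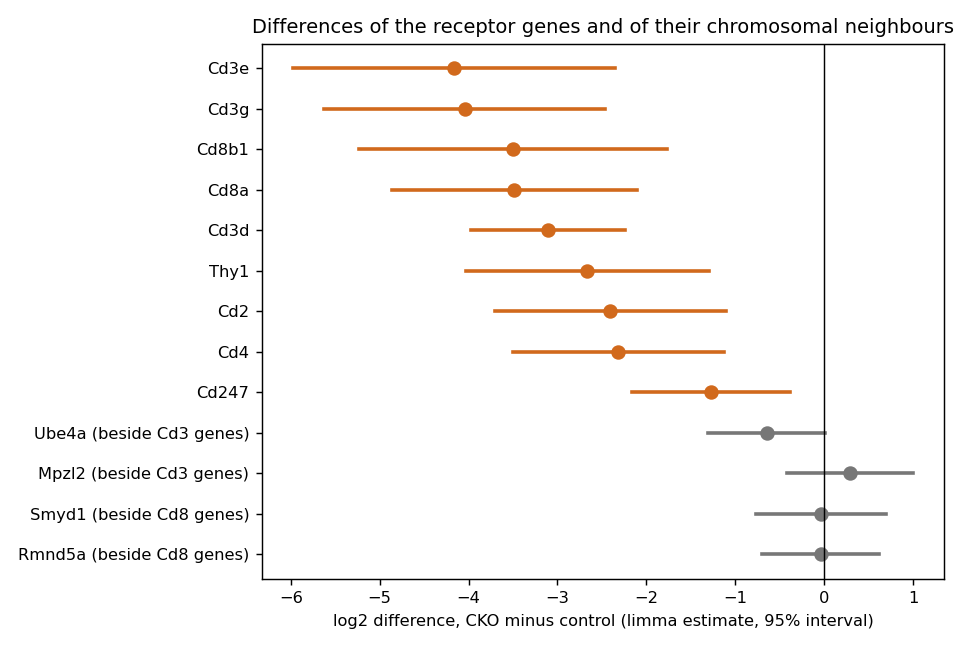
Log2 difference, CKO minus control (x axis), of the 9 measured genes (orange) and of the genes next to the Cd3 and Cd8 genes (grey); points are limma estimates from 3 against 3 arrays and lines their 95% intervals. The 9 intervals of the receptor genes lie below 0, whereas those of the 4 neighbours include it.

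Cd247 encodes the zeta chain, which carries more signalling motifs than the other chains and is also used by NK cell receptors. Its values were 7.64, 7.31 and 8.26 in controls and 5.89, 7.05 and 6.45 in CKO. CKO 2 came within 0.26 of control 2, the narrowest gap among the members. The difference was -1.27 (SE 0.39, 95% interval -2.16 to -0.39, adjusted p = 0.320), 2.42-fold lower in CKO. Its control values stood between percentiles 51.6 and 63.6 of their arrays, near the middle of all probe sets.

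The contrast between Cd3e and Cd247 was also read within each array, as the log2 value of Cd3e minus that of Cd247. It was 4.91, 2.28 and 4.19 in controls and 0.59, 1.16 and 0.95 in CKO, so the groups did not overlap, and the change of the contrast in CKO was -2.89. These genes had the largest and the smallest difference of the members, and the 4 within-array contrasts given here were chosen after the values had been seen, so they are descriptions. An exact permutation test gave p = 0.1 for Cd3e minus Cd247, the smallest p it can give with 3 against 3 arrays. Adjusted over the 4 contrasts, its p was 0.2 for each.

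Cd8a encodes the alpha chain of CD8, found on cytotoxic T cells and also on some dendritic cells. Its values were 11.02, 8.68 and 10.90 in controls and 6.27, 7.09 and 6.78 in CKO. The difference was -3.49 (SE 0.60, adjusted p = 0.108), 11.2-fold lower. Cd8b1 encodes the beta chain, which is more restricted to T cells than alpha. Its values were 10.48, 7.58 and 10.22 in controls and 6.21, 5.0 and 6.57 in CKO, with CKO 2 at percentile 8.03 of its array, close to the lowest values. It differed by -3.50 (SE 0.76, adjusted p = 0.160), so that both CD8 chains differed by nearly the same amount. They lie side by side on chromosome 6, and their nearest measured neighbours Smyd1, a muscle methyltransferase gene, and Rmnd5a, a subunit gene of a ubiquitin ligase complex, differed by -0.04 each (SE 0.32 and 0.29, adjusted p = 0.974 and 0.969).

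Cd4 encodes the coreceptor of helper T cells, the cells that drive EAE. Its values were 11.21, 9.44 and 10.84 in controls and 7.4, 8.58 and 8.57 in CKO. CKO 1 stood lowest, and CKO 2 and 3 were nearly equal, with the higher of them, CKO 2, 0.86 below control 2. The difference was -2.31 (SE 0.52, 95% interval -3.50 to -1.12, adjusted p = 0.173), 4.97-fold lower.

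Within each array, Cd8a minus Cd4 was -0.19, -0.76 and 0.06 in controls and -1.13, -1.49 and -1.79 in CKO. The change of this contrast in CKO was -1.17, without overlap of the groups. Cd8b1 minus Cd4 was -0.73, -1.86 and -0.62 in controls and -1.19, -3.58 and -2.0 in CKO, and these overlapped. The mean change against Cd4 was thus -1.17 for Cd8a and -1.19 for Cd8b1, and of these 2 contrasts only that of Cd8a separated the groups. On the CKO arrays Cd8a stood at percentiles 37.25 to 45.32, Cd8b1 at 8.029 to 36.4 and Cd4 at 52.62 to 68.42. The exact permutation test gave p = 0.1 for Cd8a minus Cd4 and 0.2 for Cd8b1 minus Cd4. Low values have an uncertain level, and whether the numbers of CD8 and CD4 T cells shifted was not tested.

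Cd2 encodes an adhesion receptor of T and NK cells, in the mouse also of B cells, that binds CD48. Its values were 9.14, 7.35 and 9.79 in controls and 6.12, 6.64 and 6.30 in CKO. The CKO arrays were tightly grouped and control 2 stood 0.71 above the highest of them. It differed by -2.41 (SE 0.57, adjusted p = 0.193), 5.30-fold lower.

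Thy1 encodes a glycoprotein anchored in the membrane of T cells and, in the brain, of neurons. Its values were 10.83, 9.39 and 10.69 in controls and 8.89, 6.76 and 7.27 in CKO. Here CKO 1 was the highest array of its group, whereas for 6 of the 9 genes it was the lowest. The difference was -2.66 (SE 0.60, adjusted p = 0.172), and it was -1.41 when CKO 1 stood alone against the controls. The mean log2 level of the 10 neuron markers was 9.79 on CKO 1, against 8.04 and 8.35 on CKO 2 and 3; the part of neuronal RNA in the Thy1 values was not tested. Cd3e minus Thy1 was -2.41 on CKO 1, against 1.45 and 0.13 on CKO 2 and 3 and 0.20 to 1.76 on the control arrays.

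All 9 genes were higher on controls 1 and 3 than on control 2, and lower on the CKO arrays, but their order among the CKO arrays differed. CKO 2 was the highest CKO array for 6 genes and the lowest for 2. Averaged over them, the deviation from the mean of the 6 arrays was 2.14 and 2.16 on controls 1 and 3, 0.19 on control 2, and -1.67, -1.39 and -1.43 on CKO 1, 2 and 3. Control 2 was the lowest control for all 9 genes. Control 2 minus the mean of the other 2 controls was -2.91 for Cd3e, -2.79 for Cd3g, -2.77 for Cd8b1 and -2.28 for Cd8a, but -0.64 for Cd247. It stayed above the CKO mean by 0.85 (Cd247) to 2.31 (Cd3d).

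**Figure D3:**
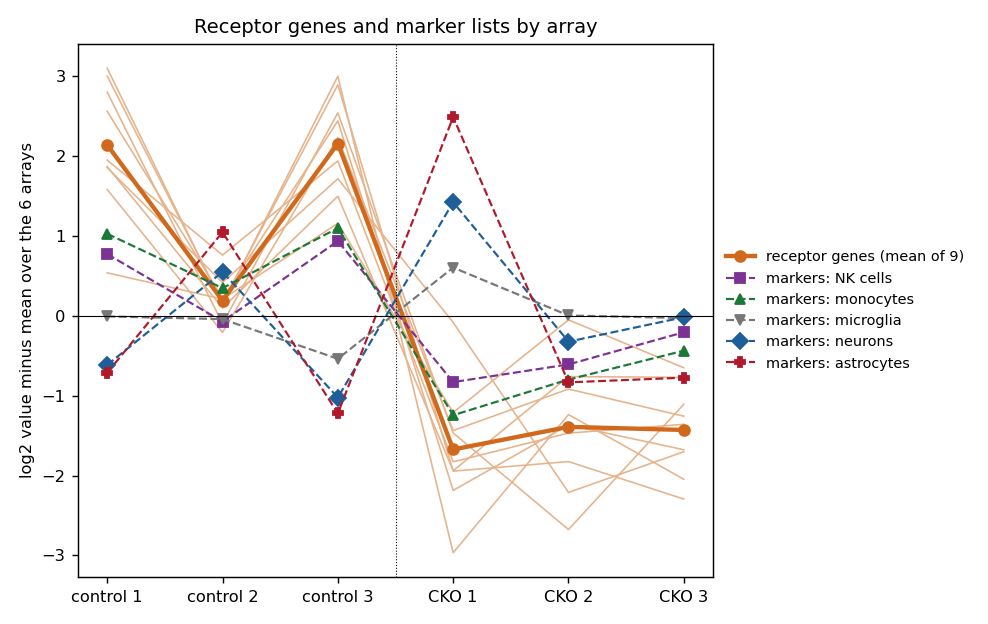
Log2 value minus the mean over the 6 arrays (y axis) on each array, for each of the 9 receptor genes (thin lines), their mean (thick orange line) and the mean of marker lists (dashed). Receptor genes, NK cell and monocyte markers are high on controls 1 and 3 and low on the CKO arrays, whereas neuron and astrocyte markers peak on control 2 and CKO 1.

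The isolates held strong microglial signal: P2ry12 was at 18.76 to 19.35 in controls and 19.65 to 19.72 in CKO, near the highest value of the table, 19.93, and Tmem119 at 12.29 to 14.77 over the 6 arrays. Of 9 measured microglia markers, 7 were higher and 2 lower in CKO, with a median difference of 0.35, 2 higher at an unadjusted p under 0.05 (Fcrls, by 1.21, and Gpr34, by 0.89) and none called. All 10 neuron markers and 8 of 10 astrocyte markers were higher in CKO, 1 and 0 of them at that p. Of all 22206 probe sets, 788 were higher in CKO at that p. The mean level of 10 astrocyte markers was 10.81 on control 2 and 12.25 on CKO 1, against 8.54 to 9.05 on the other arrays, and that of the neuron markers was 8.92 and 9.79, against 7.34 to 8.35. CKO 2 and 3 had a narrower spread of values than the other arrays (interquartile range 3.08 and 3.11, against 3.66 to 4.0). How far these features bear on the receptor genes was not tested; without control 2 and CKO 1 the median difference of the 9 genes was -3.75, and with CKO 2 and 3 left out it was -3.22.

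Most markers of other leukocytes also had lower CKO values. All 9 measured NK cell markers had lower values in CKO, 6 at an unadjusted p under 0.05 and none called; for this and the following lists the share of all probe sets lower at that p was 6.35%. The list had mean levels of 7.37 to 8.38 in controls and 6.61 to 7.24 in CKO. Ncr1, the activating receptor that defines NK cells, was at 6.27 to 7.35 in controls and 5.65 to 6.72 in CKO (difference -0.66, SE 0.40), and Klrb1c, the NK1.1 receptor, at 7.99 to 8.53 and 6.33 to 7.62 (-1.49, SE 0.39). Of 10 dendritic cell markers 9 were lower, 2 of them at p under 0.05, with mean levels of 8.09 to 8.32 and 7.13 to 7.96; Flt3, their growth factor receptor, differed by -0.81 and Xcr1, a receptor of cross-presenting dendritic cells, by -0.66.

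B cell markers had 6 of 9 genes lower, 1 at p under 0.05, at mean levels of 6.49 to 6.95 and 5.94 to 6.52; Ms4a1 (CD20) and Cd79a, a chain of the B cell receptor complex, differed by -0.59 and -0.99. All 10 monocyte markers were lower, 7 at p under 0.05, at 12.35 to 13.10 and 10.76 to 11.57; Ly6c2, a surface antigen of inflammatory monocytes, and Ccr2, their chemokine receptor, differed by -1.50 and -1.99. Of 7 markers of innate lymphoid cells 5 were lower, 2 at p under 0.05, at 9.30 to 9.48 and 8.94 to 9.02. This mean level is raised by Tmem176a and Tmem176b, at 11.93 to 13.51 and 15.53 to 16.50 over all arrays. Rora, a transcription factor, and Il17rb, a cytokine receptor, differed by 0.25 and -0.08. Median differences were -1.75 for monocyte, -0.88 for NK cell, -0.62 for dendritic cell, -0.27 for innate lymphoid cell and -0.22 for B cell markers. That of the monocyte markers was lower than the median of each T cell gene list described below. None of these markers was called by limma over all probe sets, and their part in the differences of the receptor genes was not tested.

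The genes that act next to the receptor had smaller median differences than the receptor genes. No gene of the constant regions of the receptor's own chains was analysed here. Of 16 measured kinases and adaptors of T cells, all had lower CKO values (median -1.21), 10 at an unadjusted p under 0.05 (62.5%, against 6.35% of all probe sets) and 0 called by limma over all probe sets. Themis, an adaptor of T cell selection, went from 11.86, 9.79 and 11.53 to 7.28, 8.36 and 7.75 (difference -3.26, SE 0.55, adjusted p = 0.104). Ptpn22, a phosphatase that dampens receptor signalling, differed by -2.20 (SE 0.44) and Grap2, which links LAT to SLP-76, by -2.48 (SE 0.56). Zap70 overlapped between groups, at 6.77, 5.55 and 7.35 in controls and 4.41, 5.55 and 4.31 in CKO. Called genes of this list numbered 3 without control 2, 5 without CKO 1 and 12 without both, where 0.563%, 4.94% and 6.28% of all probe sets were called lower; those at p under 0.05 numbered 6 without control 1 and 6 without control 3, where the share over all probe sets was 3.84% and 3.89%.

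Costimulatory and inhibitory receptors of T cells had lower CKO values in 18 of 19 genes (median -1.66), 15 of them at p under 0.05 (78.9%) and 0 called. Tnfrsf4 (OX40), a costimulatory receptor of activated T cells, went from 9.95, 8.77 and 10.85 to 7.11, 7.21 and 6.64 (difference -2.87, SE 0.50, limma adjusted p = 0.108). Ly9, an adhesion receptor of lymphocytes, differed by -1.84 (SE 0.33) and Tigit, an inhibitory receptor of T and NK cells, by -1.66 (SE 0.31). Havcr2 (TIM-3), an inhibitory receptor that microglia also express, was the exception, at 13.17 to 14.06 in controls and 13.32 to 14.56 in CKO (difference 0.14, SE 0.40). Without control 2, 4 genes of this list were called (0.563% of all probe sets called lower), and without CKO 1, 9 (4.94%).

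Signalling genes that T cells share with other leukocytes differed less. Of 18, 16 had lower values (median -0.60), 3 at p under 0.05 (16.7%) and 0 called. Ptpn6, the phosphatase SHP-1, differed by -1.32 (SE 0.39), Ptprc, which encodes CD45, by -1.29 (SE 0.40) and Nfatc2, a transcription factor activated by calcium, by -0.80 (SE 0.29), while Nck1, an adaptor of the cytoskeleton, differed by 0.27 (SE 0.32). The count at p under 0.05 was 6 without control 2 and 9 without CKO 1, where 6.25% and 13.6% of all probe sets were lower at that p. Without CKO 1, 4 genes of the list were called, against 4.94% of all probe sets called lower, and the median was 0.0067 with CKO 1 alone against the controls.

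Transcription factors of the T lineage had lower values in 9 of 10 genes (median -0.72), 2 at p under 0.05 and 0 called. Runx3, which directs CD8 and NK cell fates, differed by -1.37 (SE 0.41), Ikzf3, of the Ikaros family, by -1.57 (SE 0.51) and Bcl11b, which fixes T cell identity, by -0.74 (SE 0.34). Tbx21, the regulator of Th1 cells, was at 5.74, 4.98 and 5.58 in controls and 4.96, 6.05 and 5.59 in CKO (difference 0.10, SE 0.36). The count at p under 0.05 was 5 without control 2, 5 without CKO 1, 1 without control 3 and 4 after quantile normalization, where 6.25%, 13.6%, 3.89% and 6.53% of all probe sets were lower at that p. The differences between these lists were not tested.

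**Figure D4:**
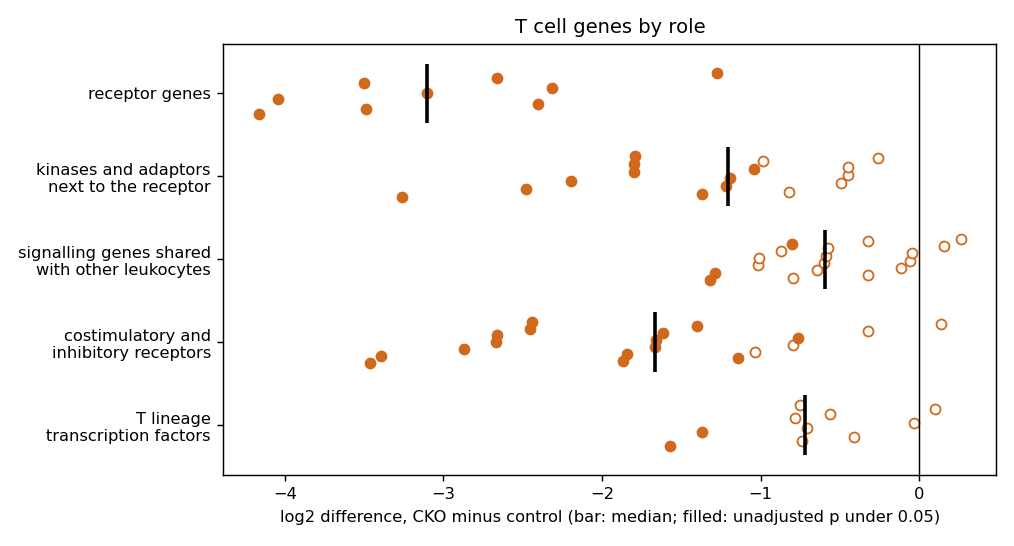
Log2 difference, CKO minus control (x axis), of each gene, by role (rows); bars are medians and filled points have an unadjusted limma p under 0.05. All 9 receptor genes are filled, and the shared signalling genes lie nearest to 0 (median -0.60 against -3.10).

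Among all other named genes, those whose values followed the mean of the 3 CD3 chains most closely were sought by the root mean square difference over the 6 arrays, after each gene's own mean was subtracted. The closest were Ms4a4b, a membrane protein gene of T cells (0.21), the chemokine gene Ccl5 (0.30), Themis (0.31), the interferon-inducible gene Ifi213 (0.37) and the MHC class I genes H2-Q4 (0.38) and H2-Q5 (0.39), which are close paralogs and may share signal. Of the members, Cd8a lay at 0.15, nearer than any gene outside the list. The chains that make up the mean, Cd3g, Cd3e and Cd3d, were at 0.31, 0.41 and 0.52, with 2, 7 and 10 non-member genes closer. Cd8b1 was at 0.69 with 33 closer, Cd2 at 0.72 with 42 and Cd4 at 0.81 with 56. Thy1 was at 1.06 with 144 and Cd247 at 1.39 with 383. Ms4a4b was at 11.76, 9.34 and 11.50 in controls and 6.47, 7.44 and 6.53 in CKO. Its low control 2 and its lower CKO values both follow from its choice by likeness to the CD3 chains, as do those of the other genes chosen this way.

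Each member had a lower CKO value in all of the 17 alternative settings that measured it. Only under quantile normalization and cyclic loess could a sign have turned. Median centring could not turn one, as array medians of 7.13 to 7.34 span less than the narrowest gap between the groups, 0.26. Array weights and left-out arrays could not either, as the groups did not overlap for any member. The other settings change the variance or the probe sets tested. Cd247 was not among the brighter 50% of probe sets and has 16 settings. The difference ranged from -5.14 to -3.66 for Cd3e, from -3.50 to -2.90 for Cd3d, from -4.25 to -3.08 for Cd8a, from -3.10 to -1.92 for Cd4 and from -1.85 to -0.99 for Cd247. Cd3d, Cd3e, Cd3g, Cd8a and Cd8b1 passed the adjusted threshold in 4 of these settings each, Cd4, Cd2 and Thy1 in 3, and Cd247 in 0. They were array weights and the settings without control 2, without CKO 1 or without both, in which 125 to 2516 of all probe sets were called, against 2 with all arrays.

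**Figure D5:**
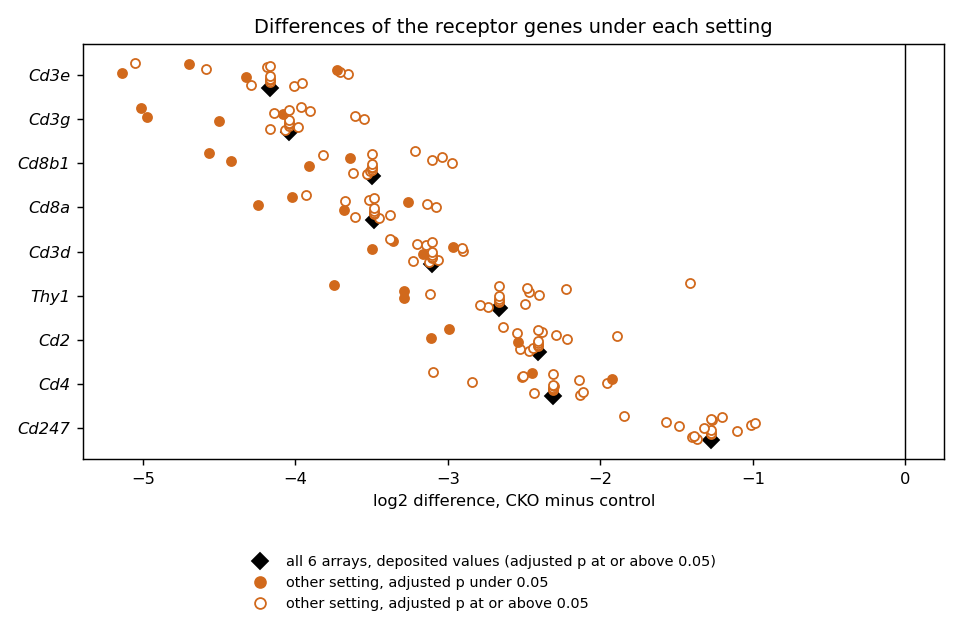
Log2 difference, CKO minus control (x axis), of each receptor gene (rows) with all 6 arrays and deposited values (black diamond) and under each alternative setting (circles, filled where the adjusted p was under 0.05). All points lie below 0, and the isolated Thy1 point at -1.41 is CKO 1 alone against the controls.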

How the data were processed

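The values are those the authors deposited, on a log2 scale, 1 per probe set and array. RMA, which corrects background, normalizes and summarises probes, is named as the tool per the submitters' processing notes, and the sources used here give neither its version or settings nor a genome build. That the scale is log2 was inferred from the range, 2.93 to 19.93. No measure of background was used here, so low values have an uncertain level. Genes were named from the platform annotation; RefSeq (GRCm38.p6) gave gene order and promoter sequences.

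The model (limma 3.58.1, R 4.3.3; lmFit and eBayes, CKO minus control, two-sided) ran on all 22206 probe sets, and p-values were adjusted over all of them by Benjamini-Hochberg, with 0.05 as threshold; the fit was tested on simulated data. The members, gene lists and tests were chosen with earlier results of these data known. All 10 members are named, with the 3 genes of smallest p of each list and its strongest opposite gene, where a list has one. Also named are the first 2 measured markers of each cell type and the neighbours of the Cd3 and Cd8 genes. The 6 genes closest to the CD3 chains are named too. Zap70, Fcrls, Gpr34, Tmem176a and Tmem176b were added after their values were seen. Deviations of same-numbered arrays correlated at -0.01, -0.23 and 0.25. Differently numbered arrays were not set beside them, so whether replicate numbers pair the samples was not decided. Alternatives covered normalization, filters, variance models, array weights, a replicate block, probe set choice, the threshold and left-out arrays; leaving out 2 arrays together was chosen after seeing the data.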

Additional observations from a re-analysis of the deposited data

How the results depend on the processing

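Of the 9 measured genes, 0 were called with all arrays. The count was 8 with array weights and 8 with control replicate 2 and CKO replicate 1 both left out, and 1 at an adjusted p under 0.1. At that relaxed threshold 0.198% of all probe sets were called lower. Leaving out one array gave 0 to 7. The count stayed at 0 under quantile normalization, median centring, cyclic loess, both filters on dim probe sets, the trended robust variance, averaging of probe sets per gene, and CKO replicates 2 and 3 left out. With the replicate number as a block it was also 0, and the median difference of the members was -3.10. The block changed no call of a member, and nothing beyond the shared number is known to pair the samples. In the block fit 5 shared signalling genes were lower at p under 0.05, against 3 without it. The share of all probe sets lower at that p was 6.42% with the block and 6.35% without it. With array weights 7 kinases and adaptors, 12 costimulatory and inhibitory receptors and 5 shared signalling genes were called, and 4.76% of all probe sets were called lower. The median over all probe sets was 0.06 with deposited values and -0.06 after median centring, and differences are read relative to it. The median of the T lineage transcription factors was -1.07 with control replicate 2 and CKO replicate 1 left out, and that of the shared signalling genes was 0.0067 with CKO replicates 2 and 3 left out; the cause was not tested. With 1 CKO array left, that array is assumed to vary like the controls. Leaving out one array gave a median member difference of -3.50 to -2.90. Arrays of 3 per group limit the precision.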
